A study of Mus musculus with 36 samples.

Results

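The 8 white adipocyte genes described here are Pparg, Cebpa, Cebpb, Fabp4, Adipoq, Plin1, Lpl and Adig, out of 15289 genes measured by RNA sequencing. They were taken by gene symbol, and each symbol matched 1 gene. All 33 libraries come from mouse cells with the Nrl-GFP transgene, in which the Nrl promoter, active in rod photoreceptors, drives green fluorescent protein. The starting cells were mouse embryonic fibroblasts (MEF) at passage 2 (n = 3). Treatment of fibroblasts used 5 chemicals and a photoreceptor induction medium. Cells from day 5 (n = 3) and from day 8 (n = 3) are the intermediates, and the cells labelled CiPC are from day 11 (n = 3). Rods were isolated at postnatal day 2 (P2, n = 2), P4 (n = 2), P5 (n = 3), P6 (n = 3), P10 (n = 4), P14 (n = 3) and P28 (n = 4). The labels do not name the chemicals. They state that cells were sorted by the reporter, without giving the reporter state kept for MEF and intermediates. They also do not say that replicates were separate cultures or animals, so p-values cover only library-to-library spread, possibly of technical origin.

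White adipocytes store fat as triglyceride in a lipid droplet. In cultured adipocyte precursors, the transcription factor C/EBP-beta (Cebpb) is induced early and precedes the nuclear receptor PPAR-gamma (Pparg) and C/EBP-alpha (Cebpa), which maintain each other's expression. These factors then drive the genes of the mature cell. Lipoprotein lipase (Lpl) frees fatty acids from circulating lipoproteins, Fabp4 carries fatty acids in the cytosol, and perilipin (Plin1) coats the lipid droplet. Adiponectin (Adipoq) is a hormone secreted by adipocytes, and adipogenin (Adig) is a small membrane protein of adipocytes.

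Values are the authors' normalized CPM, read counts rescaled so that libraries can be compared, by a scaling that is not stated. Their column sums ran from 719752 to 2277242 and the read depth behind them is unknown. The labelled cell types were checked against markers. The summed CPM of 6 fibroblast markers was 8249 to 9833 in MEF, 40006 to 42186 at day 5, 43453 to 47670 at day 8 and 77.8 to 106 in CiPC. That of 5 rod markers was 1.91 to 3.42 in MEF, 1.85 to 2.9 at day 5, 2.69 to 3.79 at day 8, 246 to 259 in CiPC and at least 3063 in every rod library. P10 replicate 4 and P14 replicate 3 stood apart, with the lowest rod marker sums of their ages (12482 and 14152), and the calls of P28 against P2 rods were the same without them.

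The comparison of day 5 intermediates with MEF covers the first step of the treatment. Here 7 of the 8 genes were higher, and Adig was not called. In this comparison 13.6% of the 14798 genes tested were called higher (limma, Benjamini-Hochberg adjusted p under 0.05 over all genes and a fold of at least 2 on the log2(CPM + 1) scale). The median difference of the 8 genes was 3.13 log2 units, against 0.02 for all genes tested. A gene had to reach 1 CPM in at least 3 of 15 libraries to be tested. Pparg reached 1 CPM in 1 library outside day 5 and day 8, and Adipoq, Plin1 and Adig in 0, so that these 4 were tested only because of the groups in which they were high, and the count is a description.

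Among the transcription factors, Pparg (Ensembl ENSMUSG00000000440.12; GRCm38 chromosome 6, 115360951 to 115490399, plus strand, protein-coding) was at 22.1, 19.1 and 22.2 CPM at day 5, against 0.73, 1.01 and 0.918 CPM in MEF. The difference was 3.55 ± 0.13 (± SE, in log2(CPM + 1) units, as all differences here; adjusted p = 1.22e-12 by limma). Every day 5 library lay above every MEF library. Cebpa (ENSMUSG00000034957.10; chromosome 7, 35119293 to 35121928, plus strand, a single exon) was at 40.0, 42.4 and 42.0 CPM at day 5, against 5.54, 6.51 and 4.61 CPM in MEF. Its difference was 2.70 ± 0.10 (adjusted p = 9.27e-13 by limma). Cebpa was thus already above the filter in MEF, unlike Pparg in all but 1 library. Cebpb (ENSMUSG00000056501.3; chromosome 2, 167688915 to 167690418, plus strand, a single exon) was at 20.4, 27.2 and 18.3 CPM at day 5, against 2.99, 3.51 and 4.2 CPM in MEF, a difference of 2.32 ± 0.20 (adjusted p = 3.3e-08 by limma). Cebpb lies opposite Tmem189, whose mean was 74.7 CPM at day 5 and 85.2 CPM in MEF. The strand of the libraries is not given, so reads from any exon stretch that the 2 genes share cannot be told apart. Only gene spans were compared, so whether their exons overlap was not analysed here. The same holds for Pparg and Cebpa, whose spans overlap those of the antisense genes Gm44079 and Gm45091, not analysed here.

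The genes of fat uptake and storage were also higher at day 5. Lpl (ENSMUSG00000015568.16; chromosome 8, 68880491 to 68907448, plus strand) was at 1158, 1145 and 1144 CPM, against 19.1, 20.2 and 18.1 CPM in MEF, which is 60.1-fold in the means. The difference was 5.84 ± 0.061 (adjusted p = 5.54e-19 by limma). Fabp4 (ENSMUSG00000062515.3; chromosome 3, 10204088 to 10208576, minus strand) was at 236, 224 and 225 CPM at day 5, against 3.6, 2.69 and 3.8 CPM in MEF, a 67.9-fold higher mean. Lpl and Fabp4 thus rose by similar factors at day 5 from different MEF levels. Plin1 (ENSMUSG00000030546.14; chromosome 7, 79720218 to 79732903, minus strand) was at 12.9, 11.5 and 13.8 CPM at day 5, against 0.0842, 0.0389 and 0 CPM in MEF (difference 3.72 ± 0.10, adjusted p = 3.05e-14 by limma).

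The remaining members were at or near 0 in MEF. Adipoq (ENSMUSG00000022878.5; chromosome 16, 23146536 to 23158028, plus strand) was at 3.1, 2.38 and 2.53 CPM at day 5 and is listed at 0 in the 3 MEF libraries (adjusted p = 1.56e-11 by limma). Adig (ENSMUSG00000044405.4; chromosome 2, 158502612 to 158508198, plus strand) was at 0.0264, 0.0734 and 0.197 CPM at day 5, against 0.0299, 0 and 0 CPM in MEF. Its groups overlapped, with a difference of 0.12 (95% interval -0.09 to 0.33; adjusted p = 0.289 by limma). In bulk RNA, a higher share of expressing cells and more RNA per cell cannot be told apart, here and below.

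**Figure D1:**
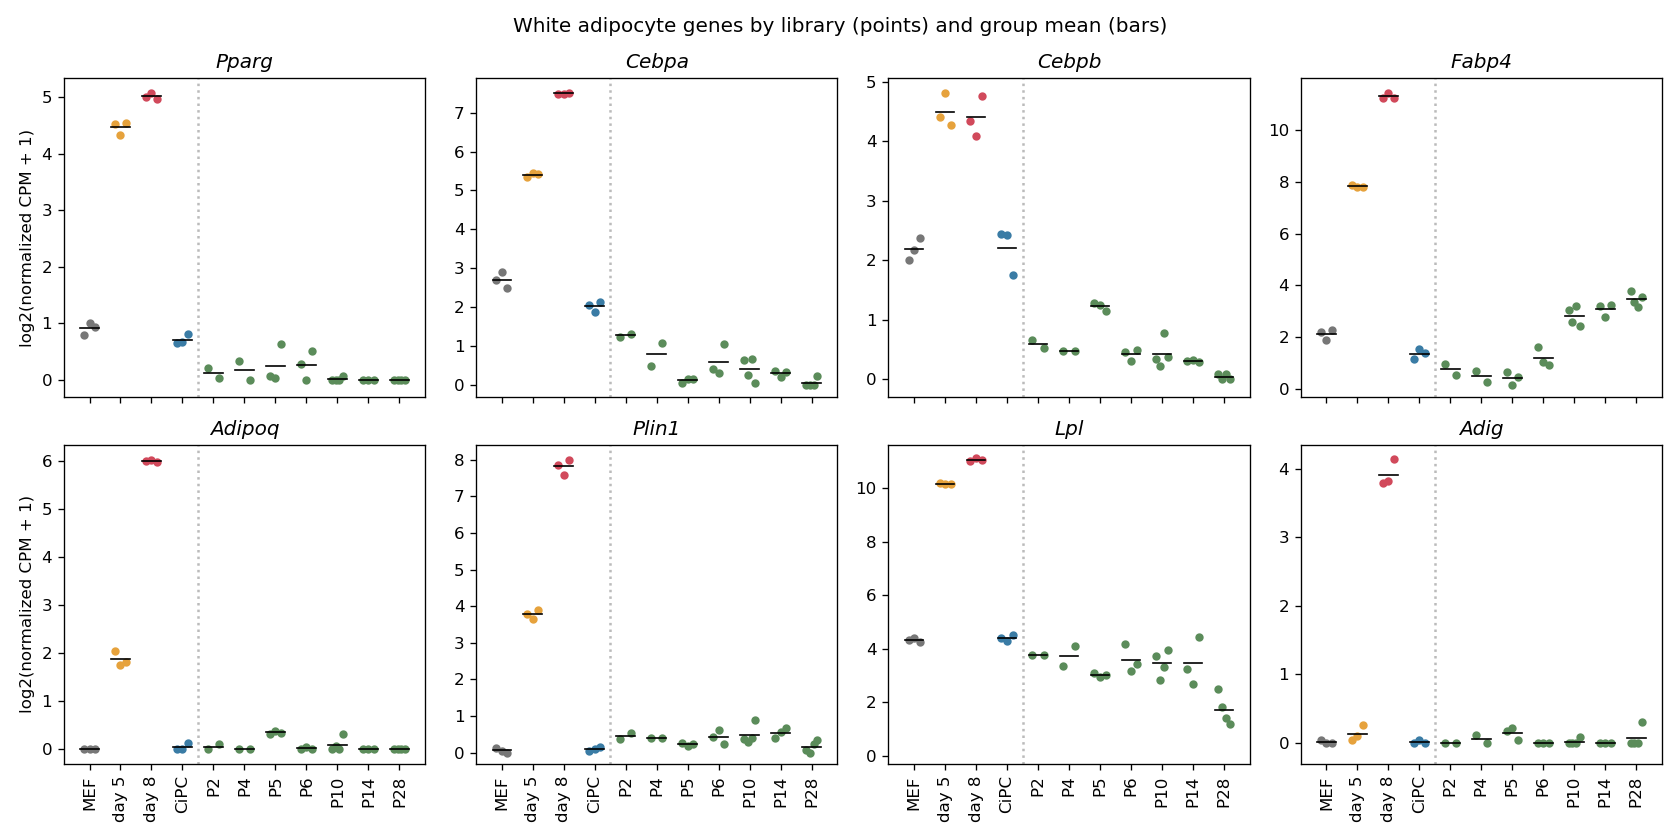
Each panel plots 1 gene as log2(normalized CPM + 1) on the vertical axis, with its own scale, against the 11 groups; points are libraries and bars are group means. Day 8 libraries lie above all others for every gene except Cebpb, where day 5 and day 8 overlap (18.3 to 27.2 and 16.1 to 26.3 CPM).

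Between day 5 and day 8 the mean of every gene except Cebpb rose, by differing amounts. Day 8 was higher by the call for Cebpa, Fabp4, Adipoq, Plin1 and Adig, which is 5 of 8, where 3.24% of all genes tested were called higher. Pparg and Lpl were also higher, without overlap of libraries, but did not reach the 2-fold threshold. The 95% interval of the Lpl difference, 0.77 to 1.04, included that threshold. Cebpb overlapped. The median difference of the 8 genes was 2.77, against -0.01 for all genes tested. Adig reached 1 CPM only in the 3 day 8 libraries, and Pparg, Adipoq and Plin1 were tested only through day 5 and day 8. The count and the median are therefore a description.

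Adig was at 12.8, 13.1 and 16.6 CPM at day 8, against at most 0.197 CPM at day 5 (difference 3.78 ± 0.099, adjusted p = 1.63e-13 by limma). Adig had not been called at day 5 against MEF, so its rise fell between the 2 time points. Adipoq was at 63.2, 64.3 and 61.7 CPM at day 8, against 2.38 to 3.1 CPM at day 5, a 23.6-fold higher mean (difference 4.13 ± 0.087, adjusted p = 1.73e-14 by limma). Plin1 was at 232, 191 and 255 CPM at day 8, against 11.5 to 13.8 CPM at day 5, a 17.8-fold higher mean. The 3 day 8 libraries of Plin1 varied more than those of Adipoq, with SDs of 32.3 and 1.29 CPM. Fabp4 was at 2388, 2760 and 2431 CPM at day 8, against 224 to 236 CPM at day 5, an 11.1-fold higher mean (difference 3.46 ± 0.13, adjusted p = 1.32e-11 by limma). Cebpa was at 178, 179 and 180.5 CPM at day 8, against 40.0 to 42.4 CPM at day 5, 4.32-fold in the means. The 3 libraries of each time point lay close together.

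The other members had most of their day 8 level by day 5. Pparg was at 31.2, 32.8 and 30.3 CPM at day 8, against 19.1 to 22.2 CPM at day 5 (difference 0.55 ± 0.13, adjusted p = 0.00352 by limma, under 2-fold). Lpl was at 2087, 2219 and 2152 CPM at day 8, against 1144 to 1158 CPM at day 5 (difference 0.91 ± 0.061, adjusted p = 9.63e-09 by limma, under 2-fold). Cebpb was at 19.3, 16.1 and 26.3 CPM at day 8, against 20.4, 27.2 and 18.3 CPM at day 5. Its difference was -0.10 (95% interval -0.53 to 0.33), which covers a change of up to 0.53 log2 units downward.

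Written as the day 5 mean over the day 8 mean, the order was Cebpb at 107% ± 20.5 (SE, n = 3 each), Pparg at 67.3% ± 3.65, Lpl at 53.4% ± 0.967, Cebpa at 23.1% ± 0.424, Fabp4 at 9.04% ± 0.448, Plin1 at 5.63% ± 0.546, Adipoq at 4.23% ± 0.354 and Adig at 0.699% ± 0.365. The share of Cebpb carries the widest error. By this share Cebpb and Pparg ranked above Cebpa, and Lpl above the other genes of the mature adipocyte. The share depends on how far each gene rose by day 8, so the ranking is not an order of onset. In the day 5 mean over the MEF mean, Lpl was 60.1-fold, Fabp4 67.9-fold and Plin1, near 0 in MEF, 310-fold.

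**Figure D2:**
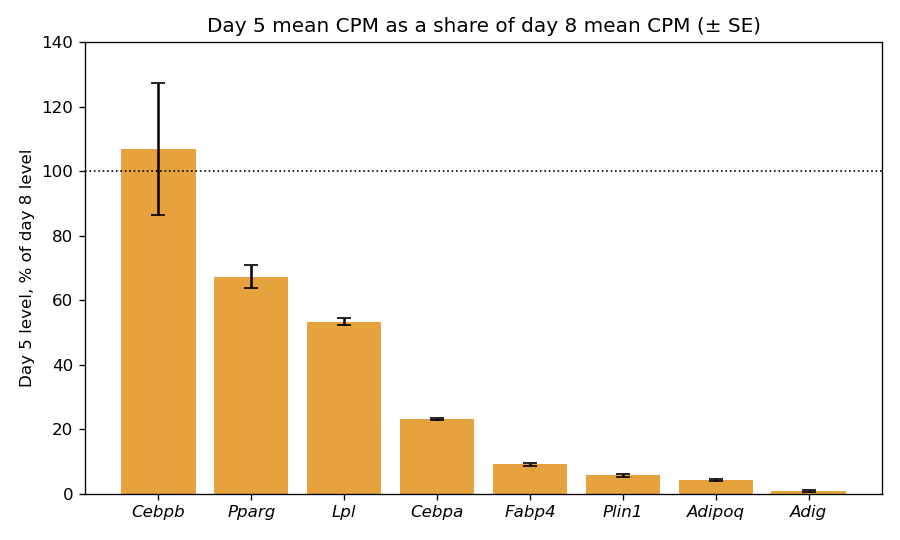
Bars give the day 5 mean CPM of each gene as a percentage of its day 8 mean (vertical axis, from 0), with SE from the 3 libraries of each day; the dotted line marks equal means. The shares run from 107% for Cebpb to 0.699% for Adig.

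RefSeq promoter windows (GRCm38.p6, 250 bases before to 50 after a start) matched 6 of the 8 genes, all but Fabp4 and Lpl, in 8 windows, 3 of them of Pparg. The windows were searched on both strands for AGGTCA (the core of a nuclear receptor site), its direct repeat with a 1-base spacer (the element bound by PPAR-gamma with its RXR partner), TTGCNNAA (a C/EBP site) and TATAAA (a core promoter element). Of all 32851 windows, 16.3% hold AGGTCA, 0.381% the direct repeat, 10.8% TTGCNNAA and 13.6% TATAAA. None of the 8 windows held the direct repeat. AGGTCA was in the window of Adig and in the 2 upstream windows of Pparg, and TTGCNNAA was in the most downstream window of Pparg and in that of Plin1, with 2 matches in each. The window of Adipoq held none of the 4 motifs. Below are the windows with a C/EBP match and those of Adipoq, with the largest log2 difference between day 8 and day 5 among the members, and Adig, which was not called before day 8. Capitals mark the matches.
Pparg, downstream start, chr6:115421816-115422115, plus strand: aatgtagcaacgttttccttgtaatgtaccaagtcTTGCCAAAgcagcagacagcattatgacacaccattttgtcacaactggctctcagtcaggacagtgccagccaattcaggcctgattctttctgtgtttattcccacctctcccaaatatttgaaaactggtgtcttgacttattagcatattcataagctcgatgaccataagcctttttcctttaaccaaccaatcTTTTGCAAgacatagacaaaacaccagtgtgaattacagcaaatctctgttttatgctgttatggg
Plin1, chr7:79732727-79733026, minus strand: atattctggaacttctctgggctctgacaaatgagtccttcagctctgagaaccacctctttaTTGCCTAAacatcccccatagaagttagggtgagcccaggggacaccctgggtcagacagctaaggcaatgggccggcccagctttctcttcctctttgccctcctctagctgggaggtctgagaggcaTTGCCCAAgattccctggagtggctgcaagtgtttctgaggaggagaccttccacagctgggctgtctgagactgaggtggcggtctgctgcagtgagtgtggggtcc
Adig, chr2:158502362-158502661, plus strand: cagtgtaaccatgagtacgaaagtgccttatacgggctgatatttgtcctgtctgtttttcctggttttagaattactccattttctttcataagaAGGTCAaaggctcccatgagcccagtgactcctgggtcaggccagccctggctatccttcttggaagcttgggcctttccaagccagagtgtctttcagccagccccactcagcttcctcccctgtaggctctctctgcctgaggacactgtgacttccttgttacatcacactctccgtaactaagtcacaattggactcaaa
Adipoq, chr16:23146286-23146585, plus strand: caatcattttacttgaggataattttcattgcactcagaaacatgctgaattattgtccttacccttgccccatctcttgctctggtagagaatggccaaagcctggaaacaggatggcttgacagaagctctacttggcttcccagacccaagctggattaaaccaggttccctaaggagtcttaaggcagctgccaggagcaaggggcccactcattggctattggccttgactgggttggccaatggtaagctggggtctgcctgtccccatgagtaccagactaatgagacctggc
The matches are a description of letters and not of binding. The table gives 1 value per gene, so the starts of Pparg cannot be told apart in these data.

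Set against MEF, the day 8 cells were higher for 8 of 8 members, where 15.2% of genes tested were called higher. This comparison shares its libraries with both steps above. Pparg, Adipoq, Plin1 and Adig were tested only through day 5 and day 8, so this count is also a description. Fabp4 differed by 9.18 ± 0.13, Plin1 by 7.76 ± 0.10, Lpl by 6.74 ± 0.061 and Cebpb by 2.22 ± 0.20. Levels of different genes were compared per kilobase of the longest coding transcript at day 8. On that scale Fabp4 was at 2820 ± 227 CPM per kilobase (SD, n = 3), Lpl at 523 ± 16.1, Plin1 at 80.3 ± 11.5, Cebpa at 68.2 ± 0.453, Adipoq at 48.8 ± 1.0, Adig at 22.4 ± 3.32, Pparg at 14.8 ± 0.617 and Cebpb at 13.7 ± 3.48. Plin1 and Cebpa differed by about the SD of Plin1, and Pparg and Cebpb by less than the SD of Cebpb. At day 5 the order of the first pair was reversed, with Lpl at 279 and Fabp4 at 255 CPM per kilobase.

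From day 8 to day 11 all 8 genes fell in the sorted cells. CiPC were lower for 8 of 8 members, where 15.6% of genes tested were called lower. The median difference was -5.71, against -0.03 for all genes tested. Pparg, Adipoq, Plin1 and Adig were again tested only through day 5 and day 8, so the count and the median are a description. Fabp4 was at 1.23, 1.94 and 1.64 CPM in CiPC, against 2388, 2760 and 2431 CPM at day 8 (difference -9.93 ± 0.13, adjusted p = 2.45e-18 by limma). Lpl was at 19.9, 18.4 and 21.6 CPM in CiPC, against 2087 to 2219 CPM at day 8 (difference -6.69 ± 0.061, adjusted p = 8.21e-20 by limma). The CiPC mean of Lpl was 0.927% of the day 8 mean and that of Fabp4 was 0.0635%. Pparg was at 0.577, 0.589 and 0.753 CPM in CiPC, 2.04% of its day 8 mean. Cebpa was at 3.15, 2.69 and 3.43 CPM in CiPC, 1.72% of its day 8 mean. Cebpb was the member that kept the largest share, with 4.46, 4.35 and 2.38 CPM in CiPC, 18.1% of its day 8 mean (difference -2.20 ± 0.20, adjusted p = 5.59e-08 by limma). Plin1 was at 0.0373, 0.0664 and 0.101 CPM in CiPC. Adipoq was listed at 0, 0 and 0.09 CPM and Adig at 0, 0.0325 and 0 CPM in CiPC. For these 3 genes CiPC lay at the level of MEF, where none reached 0.1 CPM.

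Beside this fall, the 6 fibroblast markers summed to 77.8 to 106 CPM in CiPC and 43453 to 47670 CPM at day 8, and the 5 rod markers to 246 to 259 CPM in CiPC and 2.69 to 3.79 CPM at day 8. Their part in the fall of the adipocyte genes was not tested, and a change in the sorted population and a change within cells cannot be told apart here.

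CiPC and MEF were compared to ask whether the end point differed from the starting cells. In CiPC against MEF, 0 of 8 members were called by limma, where 31.4% of genes tested were called in either direction. Pparg, Adipoq, Plin1 and Adig lay at or under about 1 CPM in both groups and were tested only through day 5 and day 8, so that the count bears on the other 4 genes, which are those tested when the 2 groups are fitted alone (0 of 4 called). Lpl was at 18.4 to 21.6 CPM in CiPC, against 18.1 to 20.2 CPM in MEF, a difference of 0.06 (95% interval -0.07 to 0.19). Pparg differed by -0.20 (95% interval -0.49 to 0.09) and Cebpb by 0.03 (95% interval -0.40 to 0.45). Cebpa and Fabp4 were lower in CiPC by less than 2-fold on the log2(CPM + 1) scale. Cebpa was at 2.69 to 3.43 CPM in CiPC, against 4.61 to 6.51 CPM in MEF, a difference of -0.67 ± 0.10 (adjusted p = 1.5e-05 by limma). Fabp4 was at 1.23 to 1.94 CPM in CiPC, against 2.69 to 3.8 CPM in MEF, a difference of -0.75 ± 0.13 (adjusted p = 8.07e-05 by limma), and it reached the 2-fold threshold with a pseudocount of 0.1 (-1.03).

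**Figure D3:**
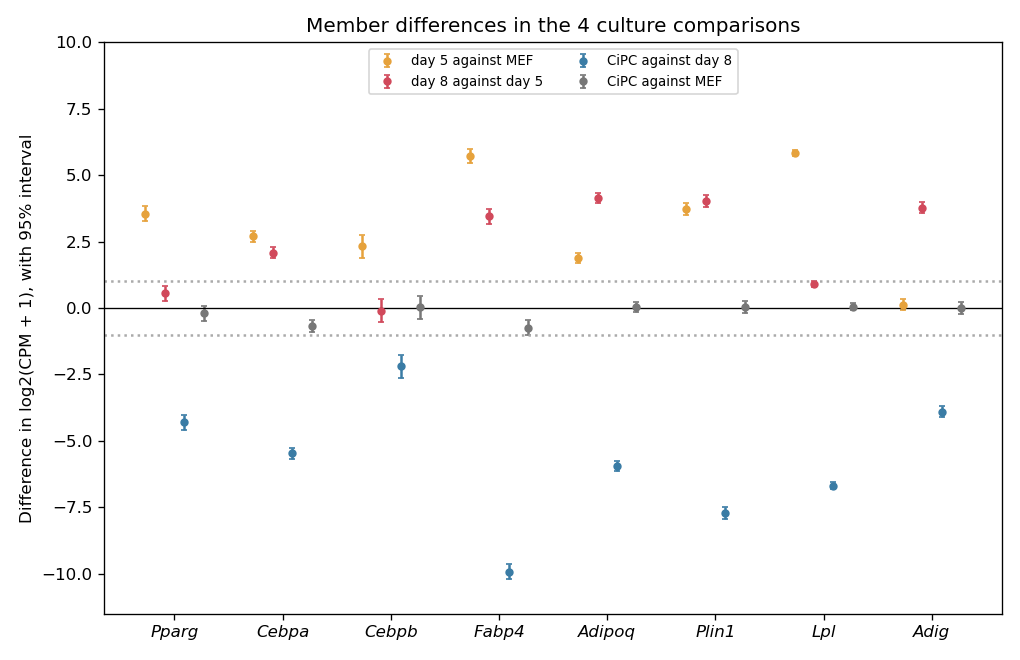
Points give the difference in log2(CPM + 1) with its 95% interval for each of the 8 genes in 4 comparisons (colours); dotted lines mark 2-fold either way. CiPC against MEF stays inside the dotted lines for every gene apart from the lower interval end of Fabp4 at -1.02, while CiPC against day 8 lies between -2.20 and -9.93.

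Markers of macrophages were lower at day 5 than in MEF, and those of endothelium went both ways. Macrophages and endothelium are known to express Fabp4, and macrophages also Lpl and Pparg. The sum of 8 macrophage markers was 243 to 269 CPM in MEF, 11.3 to 12.8 at day 5, 20.7 to 23 at day 8 and 58.3 to 62.9 in CiPC, with 0 of 8 markers at 0 in all libraries of a group. The sum was lower at day 5 and day 8 than in MEF, and higher at day 8 than at day 5. Of 14 macrophage genes tested, 0 were higher and 13 lower at day 5 against MEF. At day 8 against day 5, 2 were higher and 0 lower, with a median difference of 0.54. The sum of 6 endothelial markers was 32.7 to 35.7 CPM in MEF, 27.2 to 29.6 at day 5, 14.7 to 15.4 at day 8 and 603 to 659 in CiPC. The CiPC sum was mostly Kdr, a receptor of vascular endothelial growth factor that retinal progenitors also express, at 625.5 ± 28 CPM. Tek, the angiopoietin receptor, was higher at day 5 than in MEF and lower at day 8 than at day 5. It had 1.51 ± 0.185 CPM in MEF, 16.5 ± 0.844 CPM at day 5, 7.56 ± 0.457 CPM at day 8 and 1.32 ± 0.249 CPM in CiPC. Cdh5, the endothelial cadherin, had 0.725 ± 0.432 CPM in MEF, 3.78 ± 0.11 CPM at day 5, 0.959 ± 0.175 CPM at day 8 and 0.878 ± 0.254 CPM in CiPC. Emcn, a sialoprotein of the endothelial surface, was lower at day 5, at 0.148 ± 0.0637 CPM against 5.13 ± 0.651 in MEF. Pecam1, an endothelial adhesion protein, was at 0.371 ± 0.135 CPM at day 5 and 1.55 ± 0.114 in MEF and was not called, and Cldn5, a tight junction protein, was listed at 0 in the 3 libraries of MEF and of day 5. Of 9 endothelial genes tested, 3 were higher and 3 lower at day 5 against MEF, and 0 were higher and 4 lower at day 8 against day 5. The part of these cell types in the results was not tested.

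The genes around this set were described by lists of adipocyte biology, with counts from the same fits. Of all genes tested, 13.6% were called higher at day 5 against MEF and 3.24% higher at day 8 against day 5. In CiPC against day 8, 15.6% were called lower. Of all calls, 51.8%, 54.4% and 47.8% were higher in these steps. A count near these shares is no result about its list. Some listed genes, among them Cidec, Pck1, Cidea and Ucp1, were tested only through day 8, so counts and medians are a description. Of the regulators that promote adipogenesis, 10 of 18 were higher at day 5 than in MEF, with 0 lower and a median difference of 1.14, against 0.02 for all genes tested. Cebpd, an early partner of Cebpb, was at 33.8 ± 4.05 CPM at day 5 and 4.86 ± 0.657 in MEF (SD, n = 3). Ebf1, a factor of early adipogenesis, was at 66.5 ± 2.53 CPM at day 5 and 7.47 ± 0.83 in MEF. At day 8 against day 5, 2 of 18 were higher and 0 lower, with a median of -0.03. In CiPC against day 8, 1 of 18 was higher and 8 were lower. Ebf1 was at 3.45 ± 0.733 CPM in CiPC and 62.2 ± 2.32 at day 8, and Klf15 at 1.93 ± 0.515 CPM in CiPC and 15.7 ± 1.5 at day 8. Stat5a, a growth hormone and cytokine signal transducer, was at 2.73 ± 0.62 CPM in CiPC and 31.1 ± 5.28 at day 8. Cebpd had 40.6 ± 4.21 CPM in CiPC and 25.1 ± 4.32 at day 8, a difference of 0.68 ± 0.15 that stayed under 2-fold.

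Inhibitors of adipogenesis went both ways. At day 5 against MEF, 3 of 15 were higher and 7 lower, with a median of -0.44. Gata3, which represses Pparg, was at 1.14 ± 0.753 CPM at day 5 and 12.2 ± 1.7 in MEF. Ddit3, a stress factor that blocks C/EBP proteins, was at 13.0 ± 0.267 CPM at day 5 and 65.0 ± 3.02 in MEF. Dlk1, the preadipocyte protein that is lost as fat cells mature, was instead at 1041 ± 27.4 CPM at day 5 and 13.6 ± 1.04 in MEF. At day 8 against day 5, 0 of 15 were higher and 1 lower, and Dlk1 had 532 ± 86.7 CPM at day 8, just short of the 2-fold threshold (-0.98). In CiPC against day 8, 2 of 15 were higher and 4 lower. Dlk1 was at 0.589 ± 0.165 CPM in CiPC, and Hes1, a Notch target, at 73.9 ± 5.8 CPM in CiPC and 4.06 ± 0.918 at day 8.

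Of the genes of the lipid droplet and of fat breakdown, 3 of 15 were higher and 3 lower at day 5 against MEF, with a median of 0.03. At day 8 against day 5, 8 of 15 were higher and 0 lower with a median of 1.14. Plin4, a perilipin like Plin1, was at 47.4 ± 3.69 CPM at day 8 and 2.76 ± 0.27 at day 5. G0s2, an inhibitor of the fat lipase, was at 48.3 ± 7.61 CPM at day 8 and 6.7 ± 0.0815 at day 5, and Lipe, hormone-sensitive lipase, at 121 ± 6.59 CPM at day 8 and 24.3 ± 3.27 at day 5. Cidec, which enlarges lipid droplets, was at 14.4 ± 1.76 CPM at day 8 and 0.214 ± 0.0216 at day 5, and is listed at 0 in MEF. In CiPC against day 8, 0 of 15 were higher and 13 lower.

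Fatty acid uptake and triglyceride synthesis showed 13 of 18 genes higher and 0 lower at day 8 against day 5, with a median of 1.48. At day 5 against MEF it was 7 of 18 higher and 0 lower. Gpd1, which makes glycerol 3-phosphate, was at 363 ± 46.2 CPM at day 8 and 7.55 ± 0.611 at day 5. Cd36, a fatty acid transporter, was at 428 ± 32.2 CPM at day 8 and 88.2 ± 1.17 at day 5. Dgat2, the final enzyme of triglyceride synthesis, was at 239 ± 23.5 CPM at day 8 and 17.4 ± 0.504 at day 5, and Pck1, of glyceroneogenesis, at 53.6 ± 1.6 CPM at day 8 and 0.448 ± 0.149 at day 5. In CiPC against day 8, 13 of 18 were lower and 0 higher, and Cd36 was at 5.91 ± 0.234 CPM in CiPC. Acly, Acaca and Fasn, of fatty acid synthesis from acetyl-CoA, were not called in any of the 3 steps.

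Partners of lipoprotein lipase were measured for 6 of 12 listed genes, and the others were not analysed here. At day 5 against MEF, 3 of 6 were higher and 0 lower, and at day 8 against day 5, 0 were called. Angptl4, a secreted inhibitor of the lipase and a PPAR target, was at 488 ± 5.7 CPM at day 5 and 28.7 ± 1.58 in MEF. It was at 2.2 ± 0.237 CPM in CiPC and 573 ± 11.0 at day 8, a difference of -7.49 ± 0.083. Lrp1 and Vldlr, receptors that take up lipoproteins, were the other listed genes called higher at day 5 against MEF and lower in CiPC against day 8.

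Adipokines had 6 of 12 genes higher and 2 lower at day 5 against MEF, and 7 of 12 higher and 2 lower at day 8 against day 5. Retn, resistin, was at 19.0 ± 1.82 CPM at day 8 and 0.659 ± 0.25 at day 5, and Apln, apelin, at 149.5 ± 2.69 CPM at day 8 and 50.9 ± 1.22 at day 5. In CiPC against day 8, 7 of 12 were lower and 1 higher.

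Of the genes of adipocyte progenitors, 7 of 11 were higher and 2 lower at day 5 against MEF, and 0 higher and 1 lower at day 8 against day 5. Pdgfra, the receptor that marks fat cell precursors and other mesenchymal cells, was at 1179 ± 23.2 CPM at day 5 and 9.01 ± 3.12 in MEF, and at 9.13 ± 0.716 CPM in CiPC. Cd34 was at 219 ± 8.37 CPM at day 8 and 141 ± 2.8 at day 5. Ly6a was at 0.0845 ± 0.0176 CPM in CiPC and 259 ± 15.7 at day 8. In CiPC against day 8, 2 of 11 were higher and 9 lower.

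Brown and beige fat genes were also measured. The label white names the gene set, and the type of fat cell was not tested. At day 8 against day 5, 7 of 14 were higher and 1 lower, with Ucp1, the uncoupling protein of brown fat, at 120 ± 2.65 CPM at day 8 and 0.0502 ± 0.0435 at day 5, and Cidea, a lipid droplet protein, at 18.2 ± 0.813 CPM at day 8 and 0.367 ± 0.168 at day 5. Tmem26, a beige fat marker, was higher by day 5, at 50.05 ± 2.23 CPM against 0.51 ± 0.307 in MEF, and was not called between day 5 and day 8. The brown fat markers Dio2 and Prdm16 were at 24.0 ± 2.11 and 8.07 ± 1.3 CPM at day 8, against 13.0 ± 1.07 and 9.97 ± 2.96 at day 5.

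**Figure D4:**
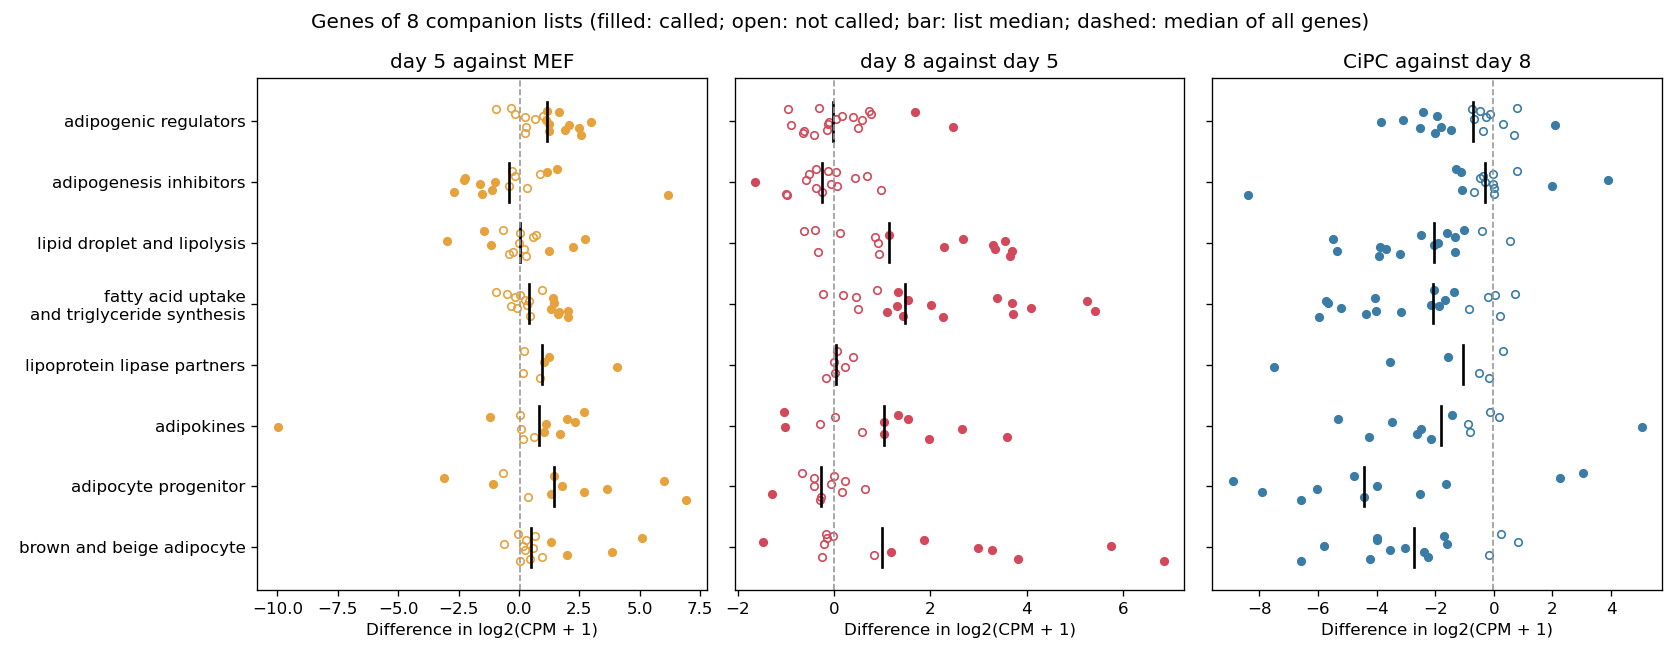
Each point is 1 gene of the list named on the left, placed by its difference in log2(CPM + 1) in 3 comparisons (panels, each with its own horizontal scale); filled points were called, open points were not, black bars are list medians and the dashed line is the median of all genes tested. Regulators and progenitor genes have medians of 1.14 and 1.45 at day 5 against MEF and of -0.03 and -0.27 at day 8 against day 5, while lipid droplet and triglyceride genes have medians of 1.14 and 1.48 at day 8 against day 5.

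Genes with the most similar course were sought over the 12 cultured libraries by Pearson correlation of log2(CPM + 1), among 11005 genes with a group mean of at least 10 CPM. The libraries share their 4 groups, so the values describe group means and carry no test. Nearest to Pparg were Kcne4 (r = 0.9989), Ccl11 (r = 0.9985) and Lpl itself (r = 0.9985). Lpl was nearest to Ccl11, Kcne4 and Cyp2f2. Kcne4, a potassium channel subunit, had means of 69.0 CPM at day 5 and 113.8 CPM at day 8, against 0.506 in MEF. Fabp5, the neighbouring paralogue of Fabp4, was nearest to both Fabp4 (r = 0.9981) and Cebpa (r = 0.9980). Adig was nearest to Cidec (r = 0.9988), Cox8b and Pck1, Plin1 to G0s2 (r = 0.9989), Ear1 and Mup9, and Adipoq to Myh4, Acadm and Slc36a2. Ear1 and Mup9 have near-identical copies, so their values are uncertain. Cebpb was nearest to Tnfrsf1a (r = 0.9917), Acaa1a and Os9. Among the members, r ran from 0.9985 between Pparg and Lpl to 0.5645 between Cebpb and Adig.

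In rods, 6 of the 8 genes stayed at or under 1.5 CPM in all 21 libraries. Pparg was at most 0.545 CPM and listed at 0 in 12 libraries, Adipoq at most 0.308 CPM and at 0 in 14, Adig at most 0.242 CPM and at 0 in 15, and Plin1 at most 0.864 CPM. Cebpa reached 1.5 CPM and Cebpb 1.44 CPM. Lpl and Fabp4 were above 0 in all 21 libraries, Lpl from 1.28 to 20.6 CPM and Fabp4 from 0.118 to 12.6 CPM.

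CiPC were set against P5 rods, the rods of the same series. Of the 8 genes, 2 were higher in CiPC, where 22.8% of genes tested were called higher. Pparg, Adipoq, Plin1 and Adig were under 1 CPM in both groups, and with the 2 groups fitted alone 2 of 4 genes tested were called. Lpl was at 19.9, 18.4 and 21.6 CPM in CiPC, against 7.52, 6.58 and 7.15 CPM in P5 rods, a difference of 1.37 ± 0.061 (adjusted p = 4.93e-12 by limma), and was 0.97, under the threshold, with quantile normalization. Cebpa was at 3.15, 2.69 and 3.43 CPM in CiPC, against 0.0381, 0.116 and 0.115 CPM in P5 rods, a difference of 1.90 ± 0.10 (adjusted p = 4.23e-11 by limma). Cebpb had a mean of 3.73 CPM in CiPC and 1.34 CPM in P5 rods, and Fabp4 1.6 CPM in CiPC and 0.358 CPM in P5 rods, with differences of 0.98 and 0.94, just under 2-fold. Both passed it with a pseudocount of 0.5 and without P5 replicate 1, so that 4 members were then called.

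Between the ages P28 and P2, Fabp4 was higher and Lpl and Cebpa were lower in the older rods. Column sums also differed between these ages, at 719752 to 746009 in P2 and 1928256 to 2277242 in P28 rods. The median difference of all genes tested was -0.29. In P28 against P2 rods only Fabp4, Lpl and Cebpa were high enough to be tested, and 1 was higher and 2 lower, where 19.7% of the 13884 genes tested were called higher and 31% lower (50.7% in all). Fabp4 was at 0.964 and 0.457 CPM in P2, 0.219 to 0.626 in P4, 0.91 to 2.04 in P6, 4.38 to 8.15 in P10, 5.94 to 8.42 in P14 and 7.93 to 12.6 CPM in P28 rods. Its difference of P28 from P2 was 2.71 ± 0.27 (adjusted p = 1.81e-07 by limma), and P28 lay above P2 in 4 of 4 libraries. Lpl was at 4.55, 2.51, 1.65 and 1.28 CPM in P28 rods, against 12.5 and 12.7 CPM in P2 rods, a difference of -2.04 ± 0.46 (adjusted p = 0.000903 by limma). Between these ages Lpl was at 9.31 and 16.2 CPM in P4, 7.83 to 17.2 in P6, 6.03 to 14.5 in P10 and 5.42 to 20.6 CPM in P14 rods. With quantile normalization the Lpl difference was -0.78 (adjusted p = 0.14 by limma), a scaling that also moved the median of all genes by 0.35. Cebpa was at 0, 0, 0 and 0.176 CPM in P28 rods, against 1.37 and 1.5 CPM in P2 rods, and its call was likewise lost with quantile normalization (-0.70). It reached 1 CPM in 4 of the 18 older rod libraries, those of P2 among them, and Fabp4, under 1 CPM in P2, in 13. Cebpa and Fabp4 were thus tested through ages in which they were high, so their calls are a description.

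Endothelial markers moved in different directions beside Fabp4 in these rods. The 6 endothelial markers summed to 13.5 to 40.7 CPM in P28 and 269 to 315 CPM in P2 rods, where Kdr had a mean of 282 CPM. Pecam1 moved the same way as Fabp4, at 19.3 ± 13.8 CPM in P28 (SD, n = 4) and 3.01 ± 0.611 in P2 rods (SD, n = 2), while Cldn5 was at 0.203 ± 0.201 in P28 and 5.62 ± 1.02 in P2 rods. The 8 macrophage markers summed to 1.12 to 4.59 CPM in P28 and 7.43 to 13.3 CPM in P2 rods. Their part in the Fabp4 difference was not tested.

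**Figure D5:**
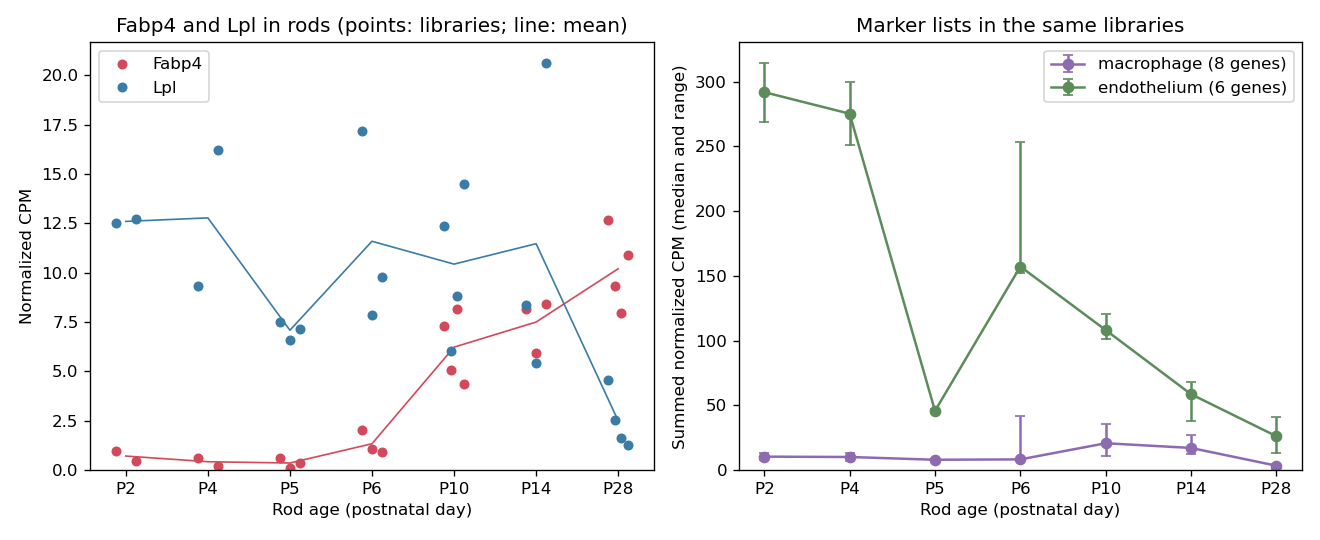
The left panel plots Fabp4 and Lpl in normalized CPM by library (points) with group means (lines) over rod ages P2 to P28, evenly spaced; the right panel plots the summed CPM of 8 macrophage and 6 endothelial markers as median and range. Fabp4 lies at 0.457 to 0.964 CPM in P2 and 7.93 to 12.6 CPM in P28 rods, and P5 rods belong to this series, while most libraries of the other ages were reused from an older one.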

How the data were processed

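The table covers 33 of the 36 samples, grouped by their titles into 11 groups. The other 3 samples, rods of P3, were not analysed here. Per the labels, rods other than P5 were reused from an older series, apart from P10 replicate 3 and P14 replicate 3, which name none. The submitters' processing notes name kallisto; the sources used here give neither its version nor the build or strand. The deposited table holds a signal per gene and library, normalized CPM, which the authors scaled in a way that is not stated. The counts behind it are unknown, so no count model was fitted. All value columns were used (0 left out), and no 2 replicates shared values.

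Values were analysed as log2(CPM + 1). limma 3.58.1 in R 4.3.3 (variance trend) was fitted over MEF, day 5, day 8, CiPC and P5 (15 libraries), and over the older rods (18 libraries). Tested genes had at least 1 CPM in at least 3 libraries, or 2 for the older rods. A call required a 2-fold difference and an adjusted p (Benjamini-Hochberg) below 0.05. The procedure was tested on simulated data. Coordinates and lengths come from GENCODE M21 (GRCm38) and promoters from RefSeq. Results of 1 listed gene are not reported here. The members and lists were chosen with earlier results of these data known. Named genes are the members, up to 4 genes per list with the largest called change, and the 3 nearest patterns per member. Acly, Acaca, Fasn, Pecam1, Cdh5, Cldn5, Tmem189, Dio2 and Prdm16 were added after their values were seen. Alternatives covered the pseudocount, filter, scaling, variance prior, fold, fit, replicate block and each library left out.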

Additional observations from a re-analysis of the deposited data

Results flagged for a closer look

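Of 14 sets of member values in groups of 4 libraries, 6 had a library far from the others of its group. Chance flags about 1 in 20 groups of continuous values, a rate that does not apply to 4 of the 6, where the other 3 libraries are all at 0 and any value above 0 stands apart. In P10 rods the highest library was replicate 4 in each of 4 cases, with Plin1 at 0.864 CPM against 0.217 to 0.308 CPM in the others, Adipoq at 0.25 CPM against at most 0.0409 CPM, Adig at 0.0591 CPM against 0 and Pparg at 0.0552 CPM against 0. In P28 rods Cebpa stood at 0.176 CPM and Adig at 0.242 CPM in replicate 4, where the other 3 libraries are listed at 0. All 6 values are under 1 CPM, and no comparison rests on them except Cebpa in P28 against P2 rods.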

How the results depend on the processing

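The number of members called in day 5 and day 8 against MEF, in day 8 against day 5 and in CiPC against day 8 stayed within 1.5 times the reported count under every alternative run, and no difference of a called member changed sign. In CiPC against MEF the count of 0 became 1 with a pseudocount of 0.1. In CiPC against P5 rods the count of 2 became 4 with a pseudocount of 0.5, 6 with 0.1, 1 with quantile normalization and 0 with a fold of at least 4. In P28 against P2 rods the count of 3 became 1 with quantile normalization. The cause was not tested. Leaving out 1 library at a time gave 7 called members in day 5 against MEF, 7 to 8 in day 8 against MEF, 4 to 5 in day 8 against day 5, 7 to 8 in CiPC against day 8, 0 in CiPC against MEF, 2 to 4 in CiPC against P5 rods and 3 in P28 against P2 rods. Without any 1 day 8 library Adig no longer reached 1 CPM in 3 libraries and was not tested, which accounts for the lower numbers with day 8. With 1 P2 library left out, the other is assumed to vary like the other groups. Leaving out P10 replicate 4 and P14 replicate 3, an alternative chosen after seeing the data, left 3 called. All genes called numbered 3875 in day 5 against MEF and 1324 with a fold of at least 4, 4360 and 1594 in day 8 against MEF, 880 and 144 in day 8 against day 5 (1403 with a pseudocount of 0.1), 4421 and 2022 in CiPC against day 8, 4651 and 1832 in CiPC against MEF, 5870 and 2338 in CiPC against P5 rods, and 7044 and 3160 in P28 against P2 rods. With quantile normalization the share of calls that were higher was 46.8% in CiPC against P5 rods (57.4% as reported) and 51.3% in P28 against P2 rods (38.9%).

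With the replicate number as a block the members called numbered 7, 8, 5 and 8 in these first 4 comparisons, 0 in CiPC against MEF, 2 in CiPC against P5 rods and 3 in P28 against P2 rods. Libraries of the same number shared no source by the labels. Their deviations from group means correlated with a median of -0.0137 over 30 pairs (-0.41 to 0.28). Over 60 pairs of unlike number the median was 0.0042 (-0.47 to 0.49). With 3 libraries in each group these values cannot exclude pairing, and no pairing was assumed in the reported fits. Depth is unknown, which limits values under about 1 CPM.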
